A study of Mus musculus with 12 samples.

Results

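Adrenergic receptor signaling in the heart was examined through 9 genes of the table, Adrb1, Adra1a, Adra1b, Gnas, Adcy5, Adcy6, Grk5, Pde4d and Ppp1r1a. The genes were found by their name in the deposited table, where each matched 1 of 43686 rows, and all 9 passed the filter on low counts. Gene positions are those of the table, whose identifiers are of the C57BL/6NJ assembly, and no gene model finer than the span was used. RNA sequencing libraries were made from the ventricular wall of 6 wild type (WT) and 6 Sdhaf4-deleted (KO) mice, labelled as C57BL/6 and 2 months old. The study's text places the mice on a C57BL/6J background, and its results give the sequenced hearts another age than the labels. Its reporting summary names male mice of 2 ages for molecular and omics work, 1 of which matches the labels. The age is therefore uncertain. WT mice carried the floxed Sdhaf4 alleles (Sdhaf4 fl/fl) without Cre, and KO mice carried the same alleles together with the Ckmm-Cre transgene, in which the muscle creatine kinase promoter drives Cre in cardiac and skeletal muscle, so that the other cell types of the heart keep the gene. Sdhaf4 encodes an assembly factor of succinate dehydrogenase, mitochondrial complex II. The mice were littermates by the study's text, the labels do not say whether animals were pooled, and p-values measure the spread between these libraries.

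In the heart, noradrenaline from sympathetic nerves and circulating adrenaline bind beta receptors, which act through the stimulatory G protein Gs and adenylyl cyclase to raise cyclic AMP and activate protein kinase A (PKA), thereby increasing the rate and force of contraction. Alpha-1 receptors instead act through Gq and phospholipase C. The signal is limited by receptor kinases and arrestins, by phosphodiesterases that degrade cyclic AMP, and by phosphatases that reverse the phosphorylation made by PKA, and loss of beta receptor signaling capacity is a well-known feature of the failing heart.

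The libraries held 23747014 to 27159228 counts in WT and 26542930 to 31393393 in KO. Sdhaf4 itself was at 25.2 ± 5.80 CPM (counts scaled to library size and by the trimmed mean of M values, TMM, SD, n = 6) in WT and at 2.40 ± 0.170 (SD, n = 6) in KO, in the direction of the labels. Of 5 atrial genes, Myl7, Sln and Bmp10 were too low to be tested in these libraries, whereas Myl4 and Nr2f2 passed the filter and were higher in KO. The summed level of the 5 genes was 18.1 to 20.2 CPM in WT and 27.0 to 35.9 CPM in KO. The cell source of this rise was not tested, so these genes do not show how purely ventricular the tissue was. None of the 7 adipocyte markers passed the filter.

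Of the 9 genes, 4 were lower in KO (Adrb1, Adra1a, Adra1b and Ppp1r1a), 2 were higher (Adcy5 and Grk5), and Adcy6, Gnas and Pde4d passed in neither direction (edgeR quasi-likelihood test, Benjamini-Hochberg adjusted p under 0.05 over 17155 rows tested). Across all rows tested, 25.5% were lower and 25.6% were higher by the same test, so calls of either kind were common in this comparison. The 6 KO libraries did not overlap the 6 WT libraries for 4 of the 9 genes (Adra1a, Adra1b, Grk5 and Ppp1r1a), against 30.1% of all rows tested. With the stricter call used in the study, an adjusted p under 0.005 and a log2 fold change beyond 1, Adra1a, Adra1b and Ppp1r1a were lower, and 4.87% of all rows tested were lower by that call. The median log2 fold change of the 9 genes was -0.09 and that of all rows was 0.002.

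**Figure D1:**
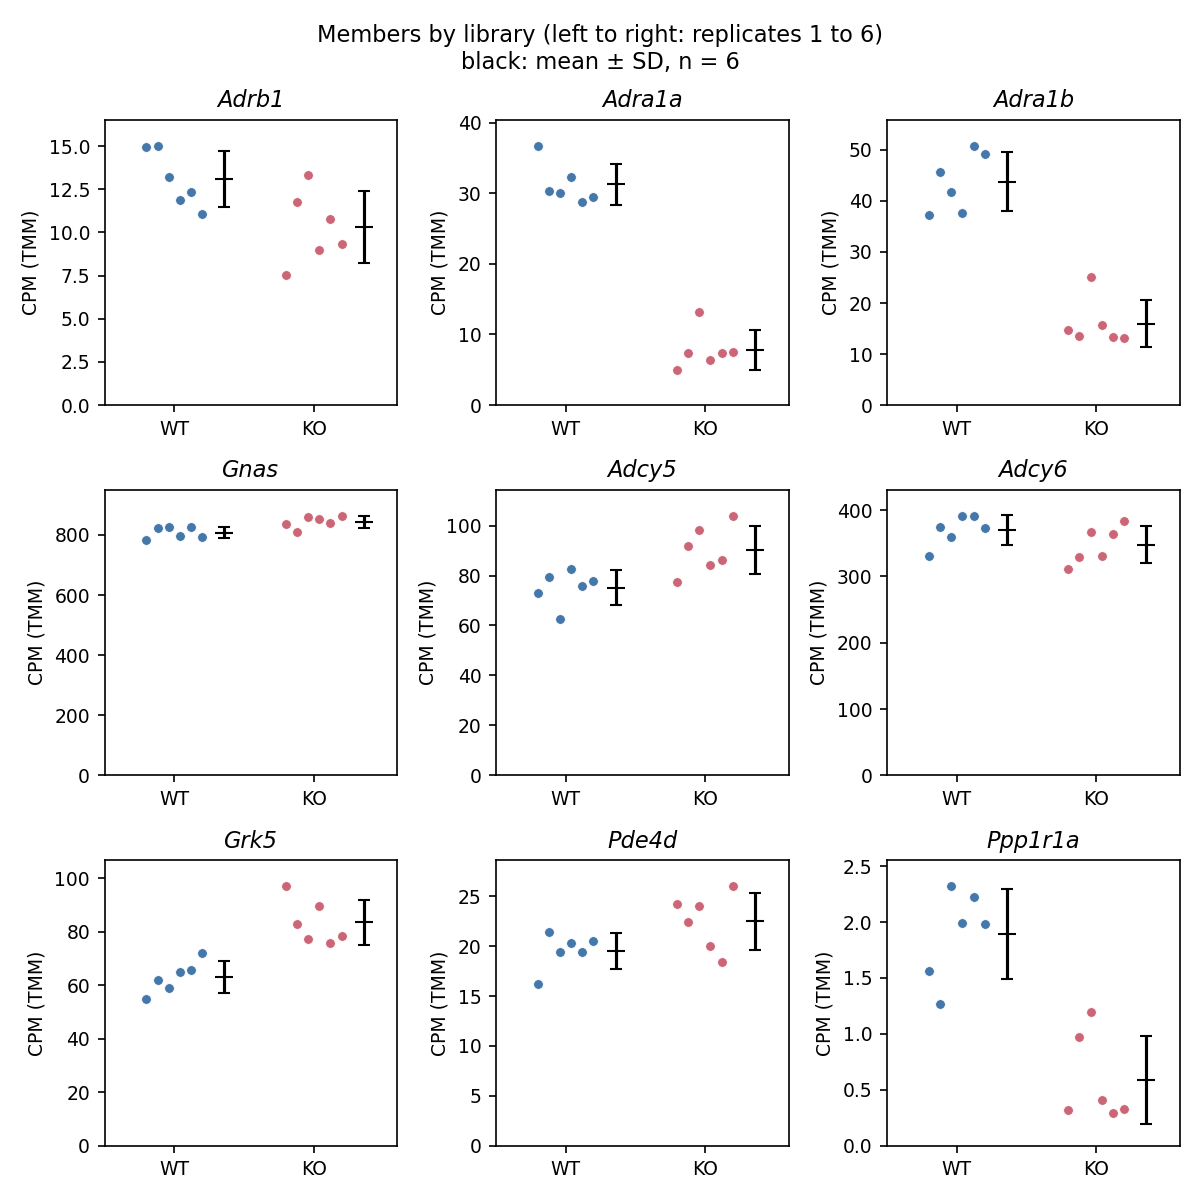
CPM (TMM-scaled, vertical axis from 0) of the 9 genes in each of the 6 WT (blue) and 6 KO (red) libraries, in replicate order from left to right, with the mean ± SD in black. Adra1a, Adra1b and Ppp1r1a are lower in every KO library than in every WT library, Grk5 is higher in every KO library, and KO replicate 3 is the highest KO library for Adra1a (13.1 CPM), Adra1b (25.1 CPM) and Ppp1r1a (1.19 CPM).

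Adrb1 (MGP_C57BL6NJ_G0025681, chromosome 19, 58469178 to 58473439, plus strand) encodes the beta1 receptor, the main receptor through which noradrenaline stimulates the ventricular myocyte. It was measured at 11.1, 12.8 and 15.03 CPM (lowest, median and highest library) in WT and at 7.55, 10.1 and 13.3 CPM in KO. KO replicates 2 and 3 lay within the WT range, KO replicates 1, 4, 5 and 6 lay below every WT library, and the groups overlapped. Its log2 fold change was -0.35 (standard error 0.13, adjusted p = 0.0288), which corresponds to a level 1.27-fold higher in WT, and a two-sided exact permutation test of the same values gave p = 0.0281. Each library held 235 to 416 counts of Adrb1. The call depended on single libraries. When the 12 libraries were left out singly the adjusted p stayed under 0.05 in 7 cases, was lost without WT replicates 1 or 2 or without KO replicates 1, 4 or 6, and reached 0.0686 at most.

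Adra1a (MGP_C57BL6NJ_G0021900, chromosome 14, 64128064 to 64232726, plus strand) and Adra1b (MGP_C57BL6NJ_G0018574, chromosome 11, 43845850 to 43984557, minus strand) encode the alpha1A and alpha1B receptors, the alpha-1 subtypes of the mouse myocyte. Adra1a was measured at 28.7, 30.1 and 36.7 CPM (lowest, median and highest library) in WT and at 4.91, 7.36 and 13.1 CPM in KO. The groups did not overlap, and WT replicate 1 and KO replicate 3 were the highest libraries of their groups. In log2 fold change Adra1a was at -2.01 (standard error 0.18, adjusted p = 7.45e-07), a level 4.02-fold higher in WT, and 1.66% of all rows tested had a lower log2 fold change.

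Adra1b was measured at 37.3, 43.7 and 50.9 CPM (lowest, median and highest library) in WT and at 13.1, 14.1 and 25.1 CPM in KO. The groups again did not overlap, and 5 of the KO libraries lay close together, between 13.1 and 15.7 CPM, with KO replicate 3 above them. In log2 fold change Adra1b was at -1.46 (standard error 0.16, adjusted p = 3.69e-06), a level 2.75-fold higher in WT. Without KO replicate 3 the log2 fold changes of Adra1a and Adra1b were -2.23 and -1.64. This library was at 2.25 CPM for Sdhaf4, within the range of 2.25 to 2.73 CPM of the KO group.

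Since these receptors are expressed in myocytes, the levels of cardiomyocyte markers are given beside them. Of 11 cardiomyocyte markers tested, 5 were lower (Tnni3, Myl2, Myl3, Ryr2 and Pln), 1 was higher (Mybpc3) and 5 were neither, and their summed level ranged from 55653 to 61554 CPM in WT and from 47663 to 65677 CPM in KO, with KO replicate 3 the highest. Of 9 fibroblast markers, 8 were higher and 1 (Dpt) was lower, with sums of 1550 to 1811 CPM in WT and 2650 to 4974 CPM in KO. Endothelial markers were split (4 higher and 1 lower of 8), as were those of smooth muscle and pericytes (2 higher and 3 lower of 8) and of skeletal muscle (1 higher and 2 lower of 4 tested). Beside these counts, 25.6% of all rows tested were higher and 25.5% were lower. With the libraries scaled to the summed cardiomyocyte markers in place of all counts, which moved the median of all rows to 0.16, Adrb1 had a log2 fold change of -0.21 and no longer passed (adjusted p = 0.157). In these bulk libraries, fewer cells of a type and less RNA per cell cannot be told apart, and the part of cell composition in the result was not tested.

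The promoters of these receptors are shown because their transcripts fell in KO. RefSeq's promoter table (GRCm38.p6, 250 bases before to 50 bases after each gene start) held 10 promoters for 6 of the 9 genes, and those of Adra1a, Adcy6 and Ppp1r1a were not analysed here. Motifs were searched on both strands, and capitals mark TGACG, the core of the cyclic AMP response element, which is contained in the full element TGACGTCA. Adrb1 lies at chr19:56721867-56722166 (plus strand), and Adra1b has 2 promoters at chr11:43901188-43901487 and chr11:43836440-43836739 (minus strand). In order, the 3 sequences read 5′ to 3′ as follows.
Adrb1 promoter: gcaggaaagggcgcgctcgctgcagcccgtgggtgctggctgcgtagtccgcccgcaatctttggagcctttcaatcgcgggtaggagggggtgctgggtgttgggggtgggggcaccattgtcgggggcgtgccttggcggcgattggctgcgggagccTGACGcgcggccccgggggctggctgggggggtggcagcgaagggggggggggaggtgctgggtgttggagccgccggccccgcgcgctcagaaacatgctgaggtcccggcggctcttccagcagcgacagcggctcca
Adra1b promoter 1: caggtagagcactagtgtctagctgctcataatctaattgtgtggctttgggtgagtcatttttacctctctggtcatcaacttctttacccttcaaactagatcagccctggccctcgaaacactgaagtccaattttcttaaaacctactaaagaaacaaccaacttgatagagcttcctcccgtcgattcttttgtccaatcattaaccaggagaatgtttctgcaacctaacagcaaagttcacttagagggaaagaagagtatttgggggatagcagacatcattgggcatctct
Adra1b promoter 2: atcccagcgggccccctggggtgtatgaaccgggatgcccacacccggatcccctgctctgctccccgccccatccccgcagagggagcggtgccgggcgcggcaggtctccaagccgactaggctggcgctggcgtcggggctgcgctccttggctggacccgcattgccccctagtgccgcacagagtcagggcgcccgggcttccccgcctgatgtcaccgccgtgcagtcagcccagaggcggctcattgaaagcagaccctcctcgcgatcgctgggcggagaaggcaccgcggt
The promoter of Adrb1 held 1 core motif, beginning at position -90 relative to the gene start, and neither Adra1b promoter held one. The core was present in 20.8% and the full element in 1.79% of all 32817 promoters of the table. Of the 10 promoters of the 6 genes, 4 held the core (Adrb1 and 3 of the Gnas promoters, 2 of which overlap and share the same site), none held the full element, and 4 held an E-box (CANNTG), which 72.3% of all promoters held, and the overlapping Gnas promoters were again counted separately. The promoters of Adrb1 and of the second Adra1b start were rich in G and C (72.3% and 71.3%), whereas the first Adra1b promoter had 42.3%, and the median of all promoters was 52.7%.

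Gnas (MGP_C57BL6NJ_G0027387, chromosome 2, 185827607 to 185897724, plus strand) encodes the stimulatory alpha subunit Gs, which links beta receptors to adenylyl cyclase. It was measured at 784, 809 and 828 CPM (lowest, median and highest library) in WT and at 810, 847 and 864 CPM in KO. KO replicate 2 lay within the WT range and the other KO libraries lay above it. The log2 fold change was 0.06 (standard error 0.04, adjusted p = 0.259), with a 95% interval from -0.02 to 0.15, whereas the exact permutation test of Gnas alone gave p = 0.0195 before any adjustment. The span of Gnas overlaps that of Gm20721 on the opposite strand, which held 39294 counts over all libraries against 271659 for Gnas, and without strand the reads of both cannot be told apart where they overlap.

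Adcy5 (MGP_C57BL6NJ_G0023182, chromosome 16, 34166246 to 34337339, plus strand) and Adcy6 (MGP_C57BL6NJ_G0022713, chromosome 15, 104044028 to 104070075, minus strand) encode the main adenylyl cyclases of the ventricle. Adcy5 was measured at 62.5, 76.7 and 82.4 CPM (lowest, median and highest library) in WT and at 77.2, 88.9 and 104 CPM in KO. The groups overlapped through KO replicate 1, and the other KO libraries lay above every WT library. In KO Adcy5 was higher by a log2 fold of 0.26 (standard error 0.08, adjusted p = 0.0073), and the call was kept when each of the 12 libraries was left out in turn.

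Adcy6 was measured at 331, 374 and 391 CPM (lowest, median and highest library) in WT and at 311, 347 and 384 CPM in KO, with most of both ranges shared. Its log2 fold change was -0.09 (standard error 0.06, adjusted p = 0.227), with an approximate 95% interval from -0.21 to 0.03. Scaled to the cardiomyocyte markers it was 0.06, so that no direction was fixed for Adcy6. The ratio of Adcy6 to Adcy5 within a library needs no scaling between libraries. It fell by 0.35 on the log2 scale (standard error 0.06, exact permutation test over 6 and 6 libraries, p = 0.00216, the smallest this design allows, 0.00325 adjusted over 6 ratios), and its ranges did not overlap, 2.19 to 2.52 in WT and 1.84 to 2.08 in KO. An unnamed row on the opposite strand overlaps the span of Adcy6 and held 5474 counts against 117631.

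Grk5 (MGP_C57BL6NJ_G0025713, chromosome 19, 62957619 to 63161758, plus strand) encodes a receptor kinase that phosphorylates agonist-bound receptors and thereby prepares them for arrestin binding. It was measured at 54.9, 63.4 and 72.0 CPM (lowest, median and highest library) in WT and at 75.8, 80.6 and 97.0 CPM in KO. Each KO library lay above each WT library, with KO replicates 1 and 4 the highest. In KO Grk5 was higher by a log2 fold of 0.40 (standard error 0.07, adjusted p = 0.00016), a 1.32-fold higher level in KO. Zfp950, on the opposite strand, overlaps the span of Grk5 and held 8878 counts against 24319.

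Pde4d (MGP_C57BL6NJ_G0021312, chromosome 13, 114091893 to 115714083, plus strand) encodes a phosphodiesterase that degrades cyclic AMP near the ryanodine receptor and the beta receptors. It was measured at 16.2, 19.9 and 21.5 CPM (lowest, median and highest library) in WT and at 18.4, 23.2 and 26.0 CPM in KO. KO replicates 4 and 5 lay within the WT range, and the other KO libraries lay above it. The log2 fold change of 0.20 (standard error 0.09) did not pass (adjusted p = 0.0648), the exact permutation test gave p = 0.0671, and the adjusted p fell under 0.05 when KO replicate 4 or 5 was left out (0.0407 and 0.0181).

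Ppp1r1a (MGP_C57BL6NJ_G0022860, chromosome 15, 109709057 to 109716708, minus strand) encodes inhibitor-1, which blocks protein phosphatase 1 once PKA has phosphorylated it and thereby prolongs the PKA signal. It was measured at 1.26, 1.99 and 2.32 CPM (lowest, median and highest library) in WT and at 0.293, 0.368 and 1.19 CPM in KO. The groups did not overlap, and KO replicates 2 and 3 lay apart from the other KO libraries, nearest to WT. The log2 fold change was -1.69 (standard error 0.35, adjusted p = 0.00060), with an approximate 95% interval from -2.37 to -1.01, and it was -2.03 without KO replicate 3. These levels rest on 35 to 59 counts per library in WT and on 9 to 36 counts in KO. In the lowest library, KO replicate 5, the 95% Wilson interval of the level scaled by library size alone was 0.156 to 0.564 CPM, which covers counting error only.

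**Figure D2:**
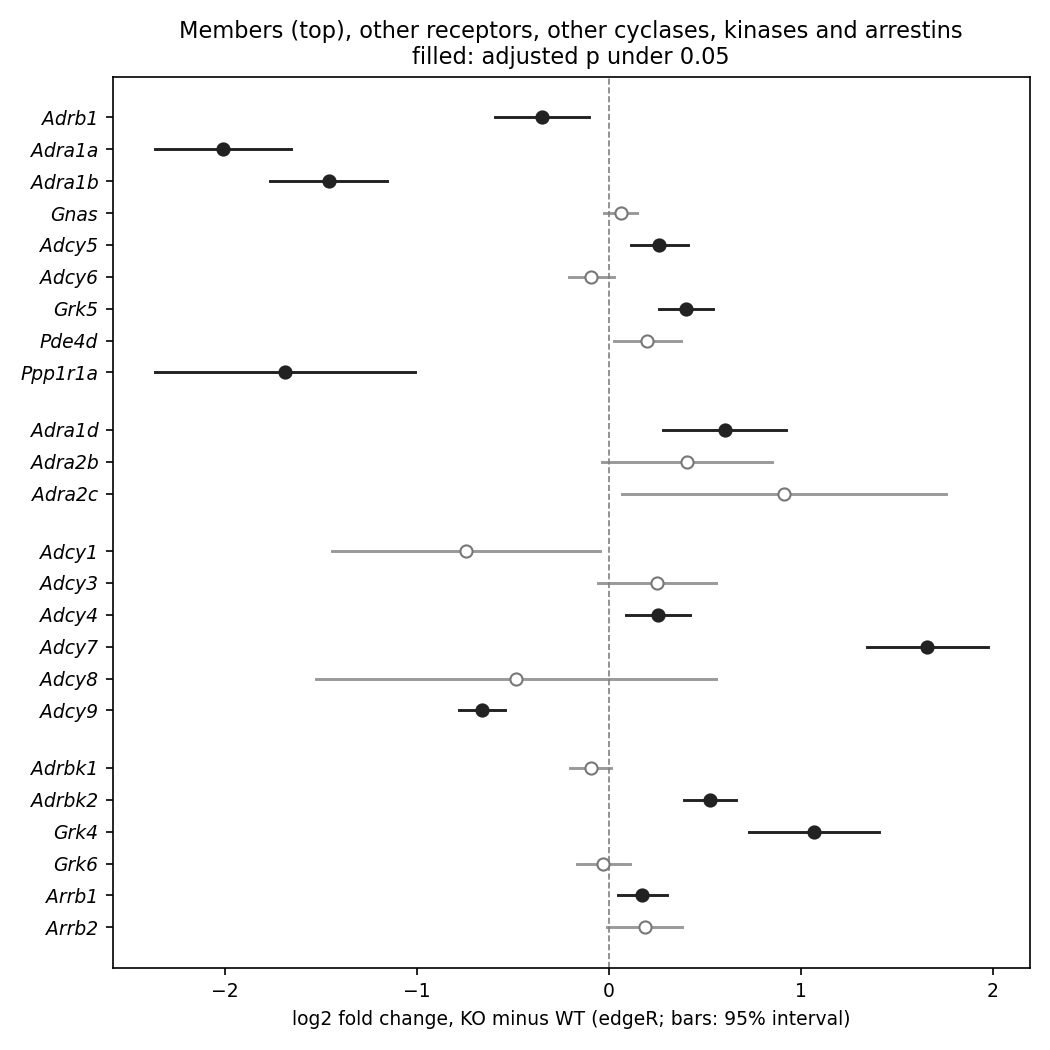
Log2 fold change of KO over WT (edgeR, horizontal axis) with an approximate 95% interval, where filled points mark an adjusted p under 0.05. The 9 genes are at the top. Below them are further adrenergic receptors, the other adenylyl cyclases, and the receptor kinases and arrestins that passed the filter. The intervals use a normal cut-off and are somewhat too narrow. That of Adcy1 runs from -1.44 to -0.05 although its unadjusted edgeR p was 0.0551. Adra1a (-2.01), Ppp1r1a (-1.69) and Adra1b (-1.46) lie farthest to the left and Adcy7 (1.66) farthest to the right.

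Levels were compared between genes on the scale of FPKM, in which the fragments of a gene are divided by its length and by the depth of the library. In WT the order of the mean FPKM was Gnas (449 ± 11.7, SD, n = 6), Adcy6 (77.5 ± 4.77), Grk5 (19.9 ± 2.09), Adra1b (16.1 ± 2.24), Adcy5 (10.8 ± 1.09), Pde4d (10.4 ± 1.07), Adra1a (8.22 ± 0.775), Adrb1 (5.24 ± 0.670) and Ppp1r1a (1.46 ± 0.297). The ranges of Grk5 and Adra1b overlapped, as did those of Adcy5 and Pde4d and of Pde4d and Adra1a, and the other neighbours in this order were separate. In KO the order was Gnas (470 ± 12.6), Adcy6 (72.8 ± 4.63), Grk5 (26.4 ± 3.11), Adcy5 (13.0 ± 1.13), Pde4d (11.96 ± 1.34), Adra1b (5.84 ± 1.56), Adrb1 (4.12 ± 0.770), Adra1a (2.03 ± 0.682) and Ppp1r1a (0.449 ± 0.293). Adra1b thus stood below Adcy5 and Pde4d, and Adra1a below Adrb1, with Adcy5 and Pde4d, Adra1b and Adrb1, and Adrb1 and Adra1a overlapping as neighbours.

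**Figure D3:**
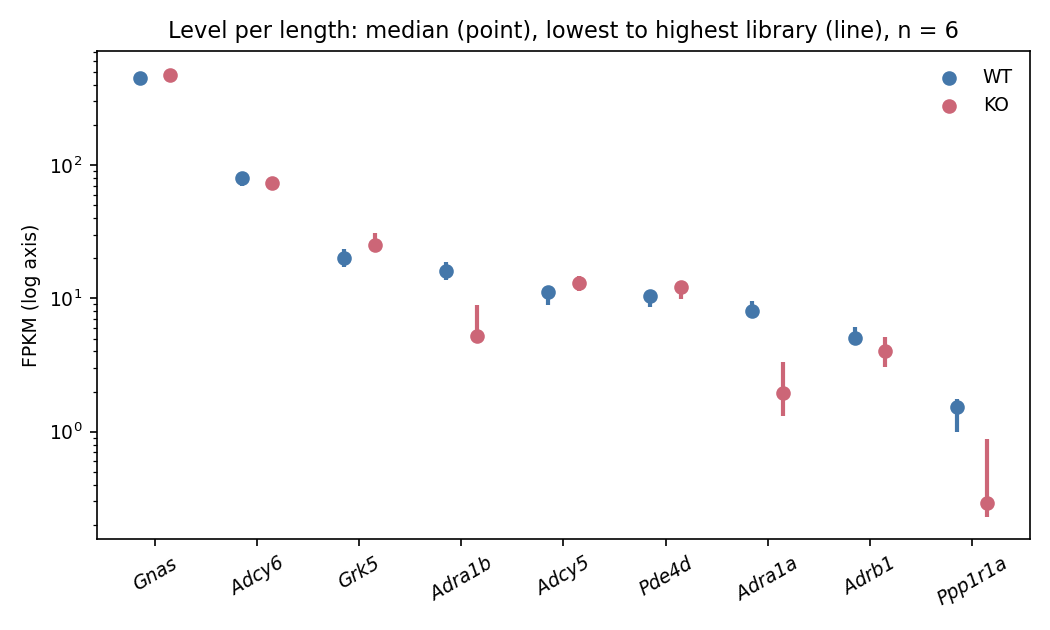
FPKM of the 9 genes (log axis), ordered by their mean in WT, with the median of 6 libraries as a point and the lowest to highest library as a line, WT in blue and KO in red. Adra1a has a median of 8.05 in WT and 1.94 in KO, and Adrb1 has 5.03 in WT and 4.05 in KO.

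The balance of alpha1A and beta1 receptor transcripts differed between the groups. Adra1b, the other alpha-1 gene of the 9, kept a higher mean FPKM than Adrb1 in WT (16.1 against 5.24) and KO (5.84 against 4.12). The ranges of Adra1b and Adrb1 overlapped in KO, and their ratio was not tested. The ratio of Adrb1 to Adra1a in FPKM was 0.565, 0.641 and 0.760 (lowest, median and highest library) in WT and 1.53, 2.14 and 2.37 in KO, so that Adra1a was the more abundant of the pair in every WT library and Adrb1 in every KO library. The log2 count ratio rose by 1.71 (standard error 0.12, exact permutation test, p = 0.00216, 0.00325 adjusted over 6 ratios). The ratio of Adra1a to Adra1b fell by 0.58 (standard error 0.18, exact p = 0.00433, adjusted 0.00519), that is, Adra1a fell further than Adra1b, with ranges from -0.83 to -0.02 in WT and from -1.57 to -0.80 in KO that overlapped.

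Within the kinases and the phosphodiesterases the ratios also differed. The log2 ratio of Grk5 to Adrbk1, the table's name for the gene of the receptor kinase GRK2, ranged from -0.37 to 0.02 in WT and from 0.08 to 0.56 in KO. It rose by 0.50 (standard error 0.09, exact permutation test, p = 0.00216, 0.00325 adjusted). The log2 ratio of Pde4d to Pde3a, which encodes the phosphodiesterase inhibited by cyclic GMP, ranged from -3.09 to -2.70 in WT and from -2.39 to -1.52 in KO and rose by 0.91 (standard error 0.14, with the same p). Pde3a itself fell by 0.71 on the log2 scale (standard error 0.07, adjusted p = 1.9e-07), whereas Pde4d did not pass the test.

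**Figure D4:**
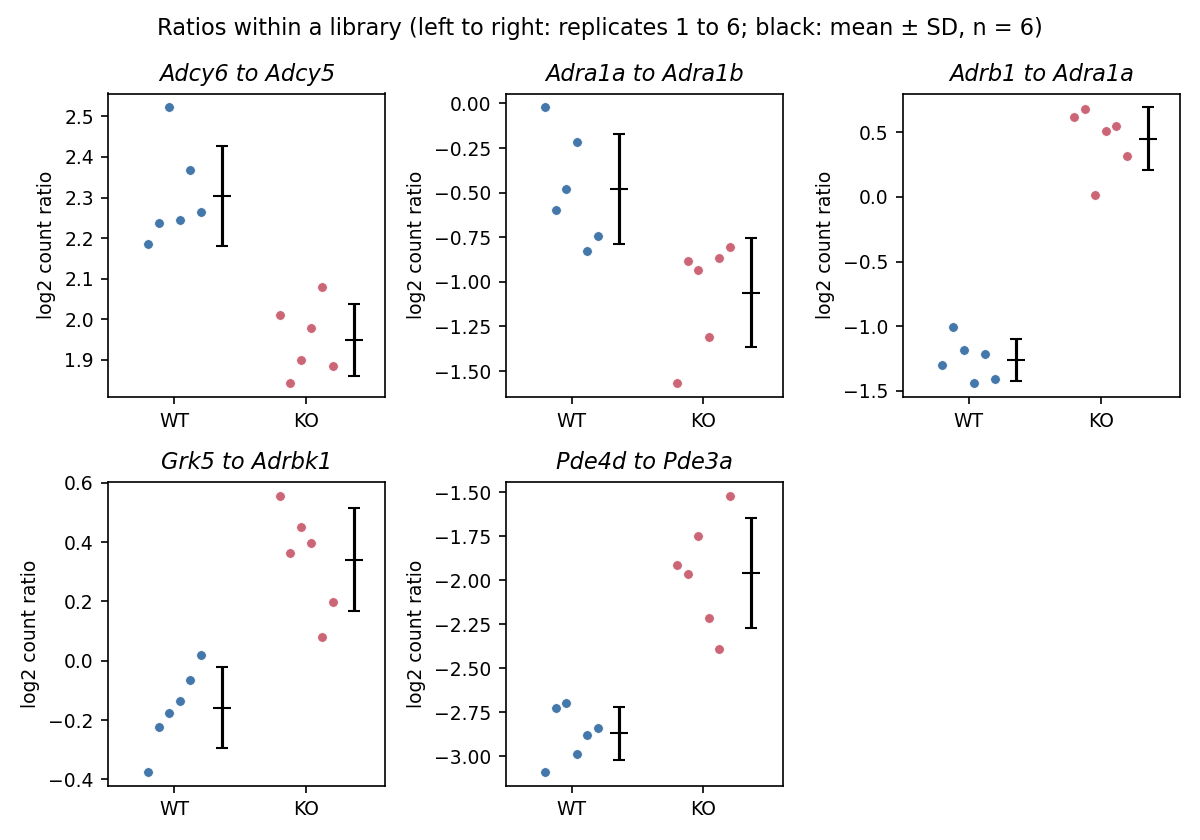
Log2 count ratio of the gene pairs described in each library, WT in blue and KO in red, replicates in order from left to right, with the mean ± SD in black and a separate vertical axis for each pair. The ratios of Adcy6 to Adcy5, Adrb1 to Adra1a, Grk5 to Adrbk1 and Pde4d to Pde3a do not overlap between the groups, whereas that of Adra1a to Adra1b differs by -0.58 with overlap.

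Of the other adrenergic receptors, 1 passed in either direction, Adra1d, which encodes the alpha1D receptor. It rose from 2.95 ± 0.601 to 4.50 ± 0.739 CPM (SD, n = 6, log2 fold change 0.61, standard error 0.16, adjusted p = 0.00502), opposite in sign to Adra1a and Adra1b and from a low level. Adra2b (0.41, standard error 0.23, adjusted p = 0.145) and Adra2c (0.92, standard error 0.43, adjusted p = 0.0863) did not pass, and Adra2c was under 1 CPM in every library. Adrb3 and Adra2a had at most 6 and 2 counts in a library and were not tested.

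Of the other adenylyl cyclases, 6 of 8 were tested, 2 were higher and 1 was lower. The shares over all rows tested were 25.6% higher and 25.5% lower, and the groups did not overlap for 30.1%. Adcy7 was at 14.9 ± 2.15 CPM in WT and 47.0 ± 11.2 in KO (log2 fold change 1.66, standard error 0.16, adjusted p = 1.71e-06), with no overlap. Adcy9, with the most counts of this list, fell from 63.5 ± 4.48 to 40.2 ± 3.07 CPM (-0.66, standard error 0.06, adjusted p = 1.39e-07), also with no overlap. Adcy4 rose by 0.26 (standard error 0.09, adjusted p = 0.0189). Adcy1, Adcy3 and Adcy8 did not pass, with log2 fold changes of -0.74, 0.25 and -0.48 (Cenpo, on the opposite strand, shares part of the span of Adcy3), and Adcy2 and Adcy10 were too low to be tested, at no more than 22 and 2 counts in a library. Beside Adcy7, which is abundant in leukocytes, 2 of 7 macrophage and leukocyte markers were lower (Adgre1 and Csf1r) and none was higher, with sums of 187 to 261 CPM in WT and 174 to 304 CPM in KO. Of the 9 fibroblast markers given above, 8 were higher and 1 was lower. The cell source of the Adcy7 transcripts was not tested.

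Of the 6 other genes of receptor desensitization, 3 were higher and none was lower. By comparison, 25.6% of all rows tested were higher and 25.5% were lower, and this list was not tested against those shares. Adrbk2, the gene of GRK3, rose from 20.4 ± 2.22 to 29.5 ± 1.17 CPM (log2 fold change 0.53, standard error 0.07, adjusted p = 6.59e-06), and Grk4 rose from 2.11 ± 0.523 to 4.44 ± 0.531 CPM (1.07, standard error 0.17, adjusted p = 6.4e-05). The groups did not overlap for either, as was the case for Grk5 and for 30.1% of all rows tested. Arrb1, which encodes beta-arrestin 1, rose by 0.17 (standard error 0.07, adjusted p = 0.0338). Adrbk1, with the most counts of this list, was at 70.2 ± 2.13 CPM in WT and 65.8 ± 5.20 in KO (-0.09, standard error 0.05, adjusted p = 0.159), and Grk6 (-0.03) and Arrb2 (0.19) did not pass either.

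Across the 13 lists of further pathway genes, written from general knowledge, 154 of 180 genes were tested, of which 52 were higher, 39 were lower and 63 were neither, with a median log2 fold change of 0.07 against 0.002 for all rows. Of all rows tested, 25.6% were higher and 25.5% were lower. These shares are the background for the counts of every list, and no list was tested against them. Among the 20 G protein subunits tested, 11 were higher and 3 were lower. Gnao1, of the Go alpha subunit, had the smallest p and rose by 0.79 (standard error 0.08, adjusted p = 5.62e-07), and Gnai2, of the inhibitory subunit Gi alpha 2, rose from 231 ± 13.3 to 280 ± 12.5 CPM (0.27, standard error 0.05, adjusted p = 0.000211). Of 13 RGS genes, whose proteins speed the switching off of G proteins, 3 were higher and 2 were lower, with Rgs7 at -1.55 (standard error 0.20, adjusted p = 5.89e-06) and Rgs5, a pericyte gene, at 0.24 (adjusted p = 0.0143).

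Of the 11 genes of PKA and of the cyclic AMP sensors EPAC, 6 were higher, 3 were lower and 2 were neither. Over all rows tested, 25.6% were higher and 25.5% were lower. Prkar1a, which encodes a regulatory subunit that restrains the catalytic subunits of PKA, was at 431 ± 25.1 CPM in WT and 1260 ± 44.9 in KO (SD, n = 6, log2 fold change 1.55, standard error 0.05, adjusted p = 4.62e-12), with ranges of 404 to 470 and 1197 to 1299 CPM. Prkaca and Prkacb, of the catalytic subunits, were among the 6 that rose, and Pkia and Pkig, of PKA inhibitors, and Rapgef4 were the 3 that fell. Of 12 genes of A-kinase anchoring proteins, which hold PKA at its targets, 3 were higher and 3 were lower. Akap6 rose by 0.84 (standard error 0.08, adjusted p = 1.59e-07), and Pde4dip, with the most counts, was at 1792 ± 64.2 CPM in WT and 1787 ± 176 in KO. Of 14 other phosphodiesterases 5 were higher and 3 were lower, with Pde3a, described above, having both the most counts and the smallest p.

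Downstream, 3 of 14 phosphatase genes and inhibitors were higher and 3 were lower. Ppp2r3a, of a regulatory subunit of protein phosphatase 2A, fell by 0.77 (standard error 0.06, adjusted p = 8.05e-09), and Hspb6, of a small heat shock protein that PKA phosphorylates, rose by 0.60 (standard error 0.09, adjusted p = 2.89e-05). Of 15 genes listed as PKA substrates of the myocyte or partners of such substrates, 8 were lower and 5 were higher, with a median log2 fold change of -0.20. Among all rows tested, 25.5% were lower and 25.6% were higher. Atp2a2 is on the list as a partner. Tnni3, of cardiac troponin I, fell by 0.89 (standard error 0.07, adjusted p = 2.72e-08), and Atp2a2, of the calcium pump of the sarcoplasmic reticulum, fell from 11018 ± 789 to 5553 ± 1251 CPM (SD, n = 6, -0.99, standard error 0.12, adjusted p = 2.38e-06). Tnni3, Pln and Ryr2, which fell, and Mybpc3, which rose, are also among the cardiomyocyte markers.

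In the alpha-1 effector arm, 7 of 17 genes were higher and 4 were lower. The same calls were made for 25.6% (higher) and 25.5% (lower) of all rows tested. Prkca, of protein kinase C alpha, rose from 25.5 ± 2.59 to 45.2 ± 3.06 CPM (SD, n = 6, log2 fold change 0.82, standard error 0.07, adjusted p = 5.04e-08), and Plcb4, of a phospholipase C, rose by 0.37 (standard error 0.06, adjusted p = 9.35e-05). Of 12 cyclic AMP-responsive transcription factors and coactivators 3 were higher and 4 were lower. Crtc3 rose by 0.34 (standard error 0.06, adjusted p = 0.000213), and Ppargc1a was at 120 ± 6.94 CPM in WT and 118 ± 32.5 in KO (-0.03, adjusted p = 0.891), with a wider spread in KO.

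Genes of catecholamine supply and removal held no gene that rose, and 5 of 10 tested fell, among them Ddc, Slc22a3, Maoa and Maob. Of all rows tested, 25.6% were higher and 25.5% were lower. Whether these 10 genes depart from those shares was not tested. Maob, which encodes the amine-degrading monoamine oxidase B, fell from 57.8 ± 2.54 to 9.51 ± 2.87 CPM (SD, n = 6, log2 fold change -2.60, standard error 0.15, adjusted p = 7.93e-09), with no overlap. Beside these genes, 3 of 5 nerve and glia markers tested were lower, among them Stmn2 and Sox10, their summed level was 17.5 to 21.8 CPM in WT and 8.54 to 13.5 CPM in KO, Snap25 was at 0 in every library, and Th and Npy were too low to be tested. The part of nerve content in the result was not tested.

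**Figure D5:**
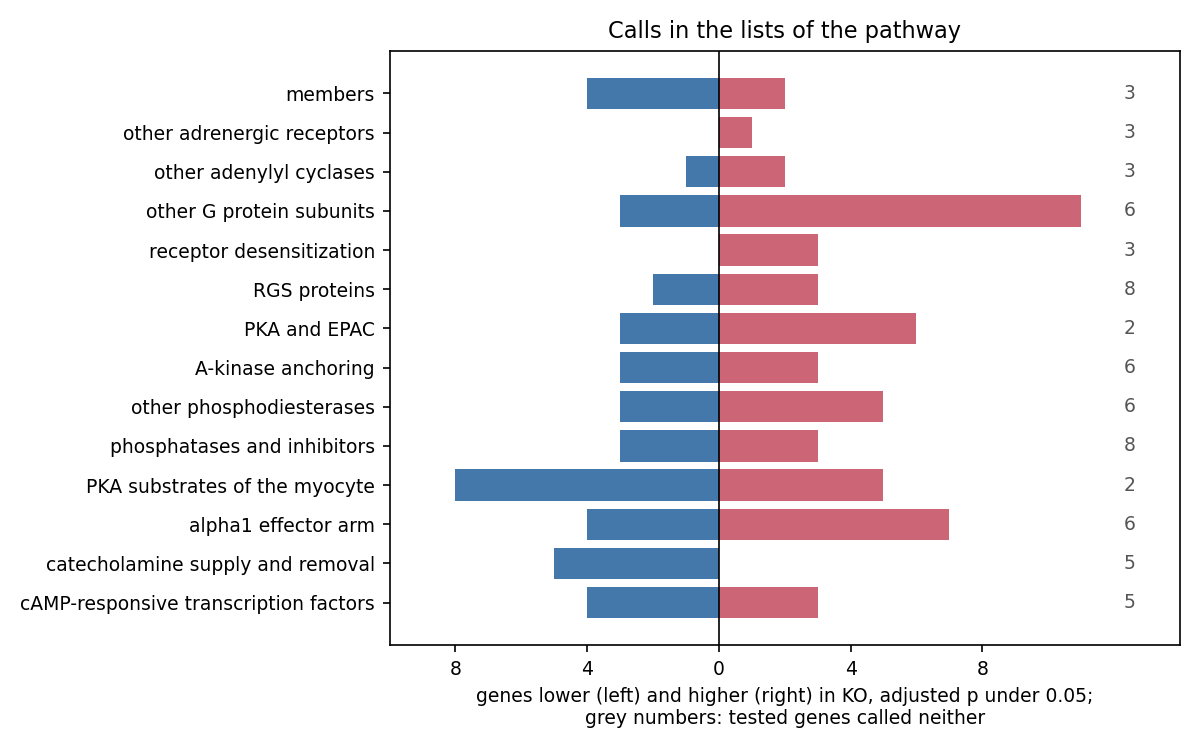
Number of genes called lower (blue, to the left) and higher (red, to the right) in KO at an adjusted p under 0.05 in the 9 genes and in each of the 13 lists, with the number of tested genes called neither in grey. The G protein subunits hold 11 higher genes, the list of PKA substrates and their partners 8 lower genes, and the catecholamine list no higher gene. Of all rows tested, 25.6% were higher and 25.5% were lower.

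The pattern of Adrb1 over the 12 libraries was most like that of Cd320, Rrp1b and Rfc3, with root mean square differences of 0.132, 0.136 and 0.137 in centred log2 CPM. This is a description of likeness without a test.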

How the data were processed

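The submitters' processing notes name HISAT2 2.0.5 and mm10, and the study's methods name HTSeq for counting, whereas the table's identifiers and coordinates are those of the C57BL/6NJ assembly, so no coordinate of that table was mixed with GRCm38. The authors deposited 1 table with raw counts per gene and FPKM, which they scaled by gene length and library size, for each of the 12 libraries. The library kit named in the labels does not mark strand, and whether counting used strand is not given in the sources used here. Columns with the authors' group means and their own comparison (fold changes and p-values) were not used. Poly-A RNA was sequenced, so degradation and 3′ bias can move counts.

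Genotypes were taken from the sample labels. Counts of all rows, 23936 of them unannotated (13.6% to 16.4% of counts), were filtered with filterByExpr, scaled by TMM and tested for genotype with edgeR 4.0.16 (robust quasi-likelihood, R 4.3.3), and p-values were adjusted by Benjamini-Hochberg across the 17155 rows that passed. Within-library ratios used counts + 0.5 and two-sided exact permutation tests (scipy 1.17.1). On simulated counts for 17036 genes, 100 of 100 genes changed by a log2 fold of 1 and 68 of 100 changed by 0.5 were recovered with 8 false calls. The simulation gave all genes the same dispersion and changed few of them, all with more counts than Ppp1r1a. It checks that the code runs correctly, and its rates do not carry over to these data, where many more rows were called. Alternatives were DESeq2 1.42.0, limma-voom (limma 3.58.1), other scalings, filters and thresholds, unannotated rows left out, a replicate block, FPKM + 0.1 for ratios and each library left out.

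The 9 genes, the lists and the tests were chosen with earlier results of these data known. The named genes are the 9 genes, every gene of the other receptor, cyclase and desensitization lists, from each further list the gene with the smallest p and the one with the most counts, and the 3 annotated genes closest to Adrb1. Other genes are named only as members that make up a count. Of the 180 list genes, 177 matched a row by name. Some genes of the lists and 1 of the 6 ratios are not reported here.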

Additional observations from a re-analysis of the deposited data

Results flagged for a closer look

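Dixon's criterion, by which the gap of a library to its nearest neighbour takes up most of the group's range, marked 2 of the 58 groups of 6 libraries that were tested, and about 2.9 would be marked by chance. For Adra1a, KO replicate 3 was at 13.1 CPM and the other KO libraries were at 4.91 to 7.497 CPM. For Adra1b, the same library was at 25.1 CPM and the others were at 13.1 to 15.7 CPM. Expressed as a fraction of the way from the mean of the other KO libraries to the WT mean in log2 CPM, KO replicate 3 was at 0.443 for Adra1a, 0.515 for Adra1b and 0.691 for Ppp1r1a. It was at 1.08 for Adrb1, 0.907 for Adcy6 and 0.299 for Grk5. For Adcy5, Gnas and Pde4d it was at -0.660, -0.602 and -0.691, away from WT. For Ppp1r1a, KO replicate 2 was at 0.540. Why KO replicate 3 stands apart for Adra1a and Adra1b was not tested.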

How the results depend on the processing

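With the libraries scaled to the cardiomyocyte markers, the log2 fold change was -0.21 for Adrb1 (no longer passing, adjusted p = 0.157), 0.064 for Adcy6 (opposite sign, adjusted p = 0.522), 0.22 for Gnas (adjusted p = 0.0182) and 0.36 for Pde4d (adjusted p = 0.00876), and 4 of the 9 genes were higher. Under that scaling 5667 of all rows were higher and 2430 lower, against 4391 and 4376. By glmTreat against a fold of 1.2, 1 of the 9 genes was higher and 3 were lower, and by the stricter call 0 were higher, since that call needs a larger change. With each library left out, the log2 fold change ranged from -0.44 to -0.27 for Adrb1 and from 0.15 to 0.26 for Pde4d. Under DESeq2, 1 catecholamine gene was higher instead of 0. Beyond the construction of the alternatives, the cause was not tested. The calls of Adra1a, Adra1b, Adcy5, Grk5 and Ppp1r1a kept their direction and an adjusted p under 0.05 in every normalization, filter and left-out library tried and under DESeq2 and limma-voom (0.0204 at most, for Adcy5).

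Libraries with the same number did not deviate together (correlations from -0.162 to 0.0243, none highest with its own number), so the numbers were not taken as pairs. The replicate block gave -0.36 for Adrb1 (adjusted p = 0.0268) and changed no call of the 9 genes or of the ratios given, and 4123 rows were higher and 4110 lower. Depth limits Ppp1r1a, Adra2c and Adcy8, which rest on few counts.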
